A study of Mus musculus with 8 samples.

Results

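The mouse mitochondrial genome carries 37 genes, and all 37 were in the count table of the cortical RNA-seq libraries as the rows assigned to chromosome MT, out of 55416 gene rows in all. They comprise 13 mRNAs, 2 rRNAs and 22 tRNAs, and the rule that selects them, the chromosome, uses no measured value, although the group was taken up with earlier results of these data known. RNA from the cerebral cortex of mice of genotype AGO2_L192P/+ (L192P, 4 libraries) was compared with that of wild-type mice (WT, 4 libraries), without a statement that each library is a separate animal. The L192P animals carried 1 edited allele of Ago2, which encodes the Argonaute protein that holds a miRNA on its target mRNAs. According to the methods the allele was made by CRISPR knock-in, where it is numbered L193P in the mouse protein. It came with a silent change at the guide's target site, and heterozygous animals were examined. Age and sex are not given in the labels, cerebral cortex mixes neurons, glia and vessels, and the libraries were made by a stranded kit that selects polyadenylated RNA. The question was whether the transcripts made inside mitochondria differ in abundance between both genotypes.

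Mitochondrial DNA is transcribed from both of its strands into long precursors that run through many genes. In most places a tRNA stands between neighbouring mRNAs or rRNAs, and cutting the tRNAs out of the precursor releases the RNAs between them. The 13 mRNAs encode core subunits of complexes I, III and IV of the respiratory chain and of the ATP synthase (complex V), whose other subunits are encoded in the nucleus and imported. The rRNAs build the ribosome that translates them. Cortical neurons and astrocytes depend on this system for much of their ATP.

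The genome is compact, and neighbouring genes adjoin or overlap. On GRCm39 chromosome MT (16299 bases) 28 of the genes are annotated on the plus strand, read from the heavy-strand promoters, and 9 on the minus strand. The open reading frames of mt-Atp8 and mt-Atp6 share 43 bases, and those of mt-Nd4l and mt-Nd4 share 7. The first sequence shown here is the start of mt-Atp6 inside mt-Atp8 (MT:7914-7943, plus strand), with the start codon of mt-Atp6 in capitals. The second is the overlap of mt-Nd4l and mt-Nd4 (MT:10156-10185, plus strand), with the shared bases in capitals. Both are GRCm39 reference sequence, written 5′ to 3′.
mt-Atp8/mt-Atp6: cttgagaattaaaATGaacgaaaatctatt
mt-Nd4l/mt-Nd4: aacctactacaATGCTAAaaattattcttc

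At 3 other borders the mRNA ends 1 base into its last codon, and the added poly(A) tail completes the stop codon. The lengths of mt-Co3 (784 bases), mt-Nd4 (1378 bases) and mt-Cytb (1144 bases) all leave a remainder of 1 when divided by 3. The following windows show the last bases of each mRNA in lower case, with the base between both genes for mt-Nd4, and the first bases of the tRNA gene that follows it in capitals (MT:9376-9405, MT:11530-11559 and MT:15274-15303, plus strand).
mt-Co3/mt-Tg: attgatgaggatcttACTCCCTTAGTATAA
mt-Nd4/mt-Th: caggcctgacaatatgTGAATATAGTTTAC
mt-Cytb/mt-Tt: taaaattatatccatGTCTTGATAGTATAA

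A stretch of mitochondrial sequence is also present in the nuclear genome almost without change. Aligned to the nuclear chromosomes of GRCm39, MT 6390 to 11042 matched chromosome 1 from 24650616 to 24655269 on the minus strand over 4654 aligned bases at 99.936% identity. The copy differs by 2 substitutions and 1 extra base, which lies in mt-Tr. One substitution, A6393T, is at the edge of the copy in mt-Co1. The other, T9461C in mt-Nd3, is shown in capitals in the mitochondrial window (MT:9446-9475) and in the copy (chr1:24652184-24652213, minus strand). Positions are counted from 1 on chromosome MT, the mitochondrial base is given first, and the pair shows how few bases tell a read of either origin apart.
mitochondrial: ccagaagagagtaatTaacctgtacactgt
chromosome 1 copy: ccagaagagagtaatCaacctgtacactgt

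The copy holds 6 mRNA genes in full, mt-Co2, mt-Atp8, mt-Atp6, mt-Co3, mt-Nd3 and mt-Nd4l, and 5 tRNA genes. It also holds the end of mt-Co1 and the first part of mt-Nd4, so that 7 mRNAs and both rRNAs are not wholly inside it and 5 of these mRNAs have no base in it. Of all windows of 75 bases in a gene, 100% occurred letter for letter in the nuclear genome for mt-Co2, mt-Atp8, mt-Atp6, mt-Co3 and mt-Nd4l, and 98.9% for mt-Nd3. The share was 61.5% for mt-Nd4, 39.8% for mt-Co1, 5.71% for mt-Nd2, 2.85% for mt-Rnr2 and 1.66% for mt-Nd5. No such window was found for mt-Nd1, mt-Nd6, mt-Cytb or mt-Rnr1. How reads with more than 1 place in the genome were counted is not given in the sources used here.

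The edited gene itself was examined first. Ago2 had 2291 ± 75.1 normalized counts in L192P and 2246 ± 130.4 in WT (SD, n = 4 each), where a normalized count is a count divided by the DESeq2 size factor of its library. This gave a log2 fold change of 0.03, with 0.06 as its standard error (DESeq2 adjusted p = 0.968). Since a substitution does not remove the transcript, this level does not check the genotype labels. Library totals were 20396357 to 43575900 counts, with WT replicate 2 the deepest. The 12 markers of cortical projection neurons were all among the genes tested. Their summed level was lower in every L192P library (48517 to 53493 normalized counts) than in every WT library (55198 to 57988). Of single genes tested, 5.97% had genotypes that did not overlap. DESeq2 called 0 of the 12, or 4 with the replicate number as a block, a fit that called 533 genes in all. Markers of the thalamus summed to 4739 to 8786 in L192P and 4125 to 4726 in WT. Calb2 of the thalamus and Gad2 of GABAergic interneurons were called higher in L192P (1 of 8 markers each), as were the neuropeptide genes Oxt and Avp of the hypothalamus (2 of 6 tested). Over all genes tested, 0.789% were called higher without the block. With the block 2 thalamic, 2 interneuron and 2 hypothalamic markers were called, and the part of other cells and neighbouring regions in the mitochondrial values was not tested. The replicate 1 library of each genotype had almost no Xist RNA (0.934 and 1.82 normalized counts), against 5185 to 7257 in the other 6.

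Mitochondrial counts made up between 0.782% and 1.96% of all counts, with no separation of the genotypes. In L192P replicates 1 to 4 the share was 0.782%, 1.60%, 1.96% and 1.81%. In WT replicates 1 to 4 it was 1.05%, 1.68%, 1.32% and 1.88%. The lowest and the highest library were both L192P, and the WT values lay between them. The means were 1.54% ± 0.527 in L192P and 1.48% ± 0.369 in WT (SD, n = 4 each), a difference of 0.0592 percentage points with a standard error of 0.322. As a sum over the transcripts studied, the share was given no p-value. In bulk tissue, fewer cells of a kind rich in mitochondria and less mitochondrial RNA per cell cannot be told apart.

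**Figure D1:**
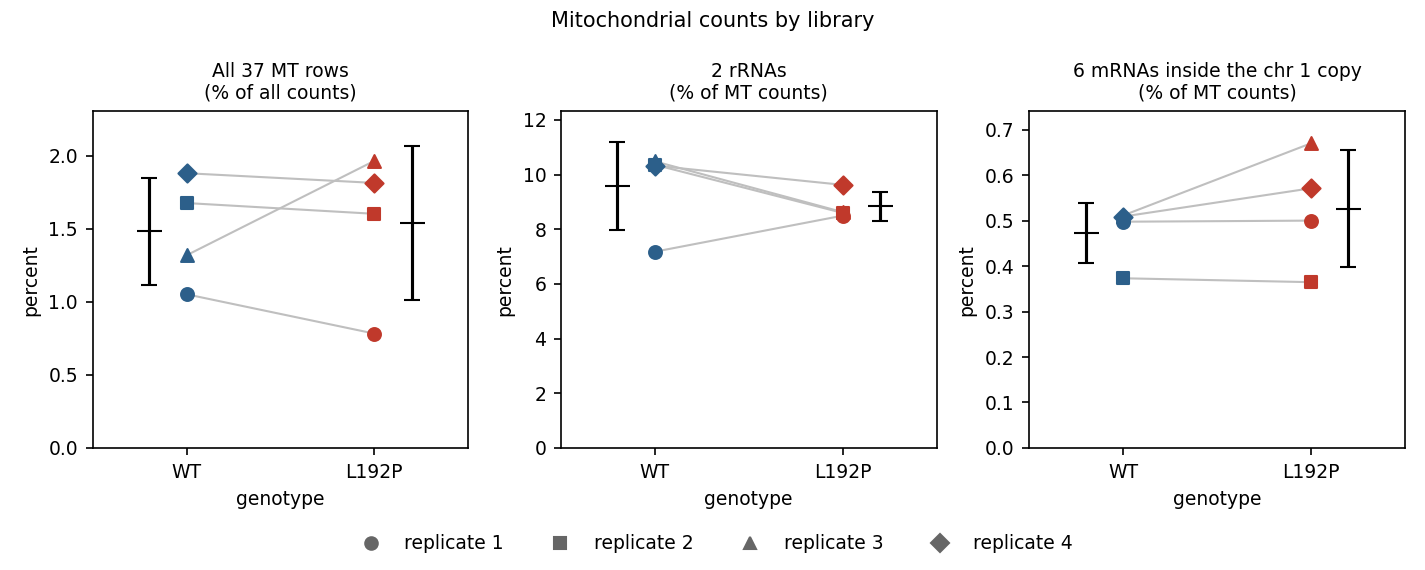
Share of counts in each of the 8 libraries, in percent, with WT at the left and L192P at the right of each panel; lines join libraries with the same replicate number, and bars beside the points give the mean and SD (n = 4). The left panel shows all 37 mitochondrial genes as a share of all counts, where replicate 1 is the lowest library of either genotype, at 0.782% in L192P and 1.05% in WT. The middle panel shows the 2 rRNAs and the right panel the 6 mRNAs inside the chromosome 1 copy, both as a share of mitochondrial counts.

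Replicate 1 had the lowest share in both genotypes. For each of the 9 mRNAs and rRNAs not wholly inside the copy, L192P replicate 1 was the lowest of the 8 libraries in normalized counts, and WT replicate 1 was the second lowest. Libraries with the same number in both genotypes deviated from their group means together across genes. Within a number, L192P was the higher library in 1 of 4, and the mean difference was 0.0592 percentage points with an SD of 0.402. With both replicate 1 libraries left out, the means were 1.79% in L192P and 1.62% in WT. Leaving out L192P replicate 1 gave a difference of 0.312 percentage points, and leaving out WT replicate 1 turned it to -0.0841.

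Other RNAs moved with the low mitochondrial share of the replicate 1 libraries, and their part in it was not tested. The same libraries were those with almost no Xist RNA, so replicate number 1 cannot be told apart from whatever goes with Xist. The summed normalized count of 8 astrocyte markers was 46942 in L192P replicate 1 and 52440 in WT replicate 1, and 68521 to 74927 in the other 6. For 8 endothelial and mural markers the sums were 1366 and 1524 against 2049 to 3039. Microglial markers summed to 5264 and 5770 against 7000 to 9631, and oligodendrocyte markers to 100912 and 103447 against 114220 to 145873. In the opposite direction, 8 long noncoding RNAs that stay in the nucleus, among them Malat1 and Meg3, summed to 83098 and 82138 against 39399 to 59541. A list of RNAs that normally lack a poly(A) tail was lowest in the same 2 libraries, at 133654 in L192P replicate 1 and 131937 in WT replicate 1, against 147575 to 198411. Nearly all of that sum came from Rn18s-rs5, a nuclear 18S rRNA sequence, and 0 of the 3 genes of the list that were tested passed.

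For genes of their level, the mitochondrial transcripts varied widely between libraries. Across the 9 mitochondrial rows with a mean of at least 5000 normalized counts, the median standard error of the log2 fold change was 0.331. The 999 other genes at that level had a median of 0.0631, and 3 of them (0.300%) had a standard error above 0.331. These were Meg3, Ttr and Snhg11, which are named because they were found in this way. Between 200 and 1000 normalized counts, 5 mitochondrial rows had a median standard error of 0.432, against 0.105 in 5197 other genes. The ratio of the highest to the lowest library ran from 2.52 to 3.14 for the 9 mRNAs and rRNAs not wholly inside the copy.

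**Figure D2:**
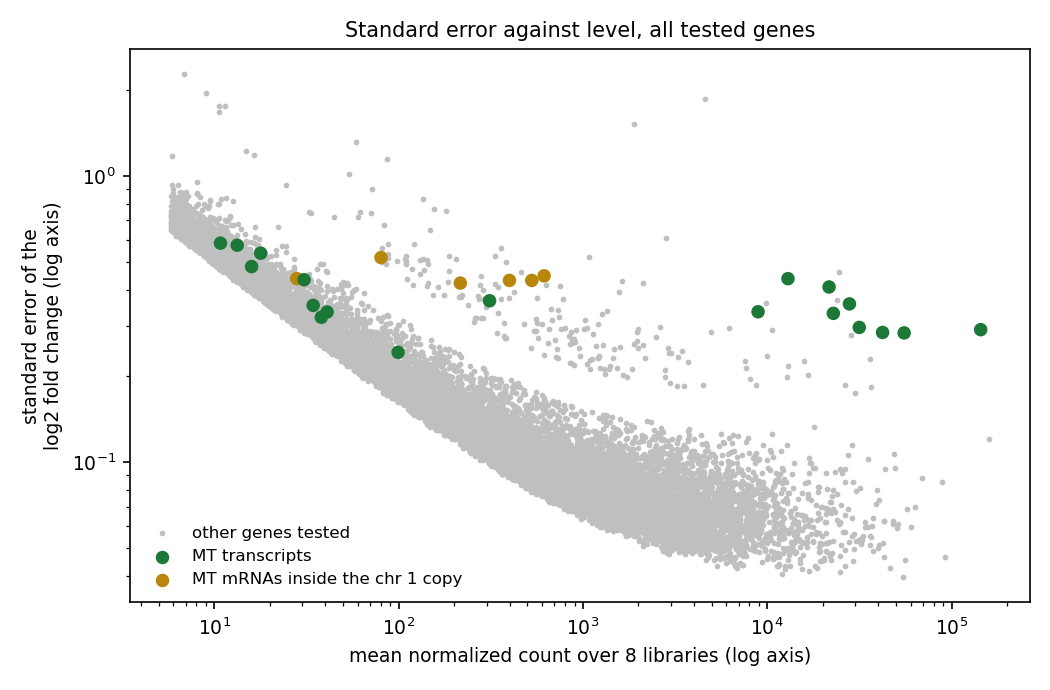
Standard error of the log2 fold change (L192P over WT, log axis) against the mean normalized count over 8 libraries (log axis) for the 18627 genes tested, with the 25 mitochondrial genes as large points. Above 5000 normalized counts the mitochondrial points lie at a median of 0.331, over a cloud of other genes with a median of 0.0631.

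The 9 mRNAs and rRNAs not wholly inside the copy varied together from library to library. Over the 8 libraries, Pearson correlations of their log2 levels had a median of 0.976 over 36 pairs, with a lowest value of 0.888. Among the 4 mRNAs inside the copy with the most counts the median was 0.884 over 6 pairs, and between those 4 and the other 9 it was 0.833. These are descriptions over libraries that the genes share.

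Of the 25 mitochondrial genes that entered the DESeq2 test, 0 were called higher and 0 lower in L192P, at a threshold of 0.05 on the Benjamini-Hochberg adjusted p. Over all 18627 genes tested, 0.789% were called higher and 0.569% lower, or 1.36% (253 genes) in all. Blocking on the replicate number gave 533 calls, with 0 among the 16 mitochondrial genes that then had an adjusted p. At an unadjusted p under 0.05 the number was 0 of 25, and edgeR and limma-voom called 0 of 24, as mt-Th was not among the genes they tested. The normalized counts of the genotypes did not separate for any of the 25, whereas they separated for 5.97% of all tested genes. Log2 fold changes ran from -0.72 to 0.40, with 12 of 25 above 0 and a median of -0.017, beside 0.0019 for all tested genes. The 13 mRNAs had a median of 0.12 with 11 above 0, and DESeq2 adjusted p-values between 0.908 and 0.998. The 7 not wholly inside the chromosome 1 copy had a median of 0.066 with 6 above 0. The 6 inside it, whose counts cannot be read as levels, had a median of 0.23 with 5 above 0.

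**Figure D3:**
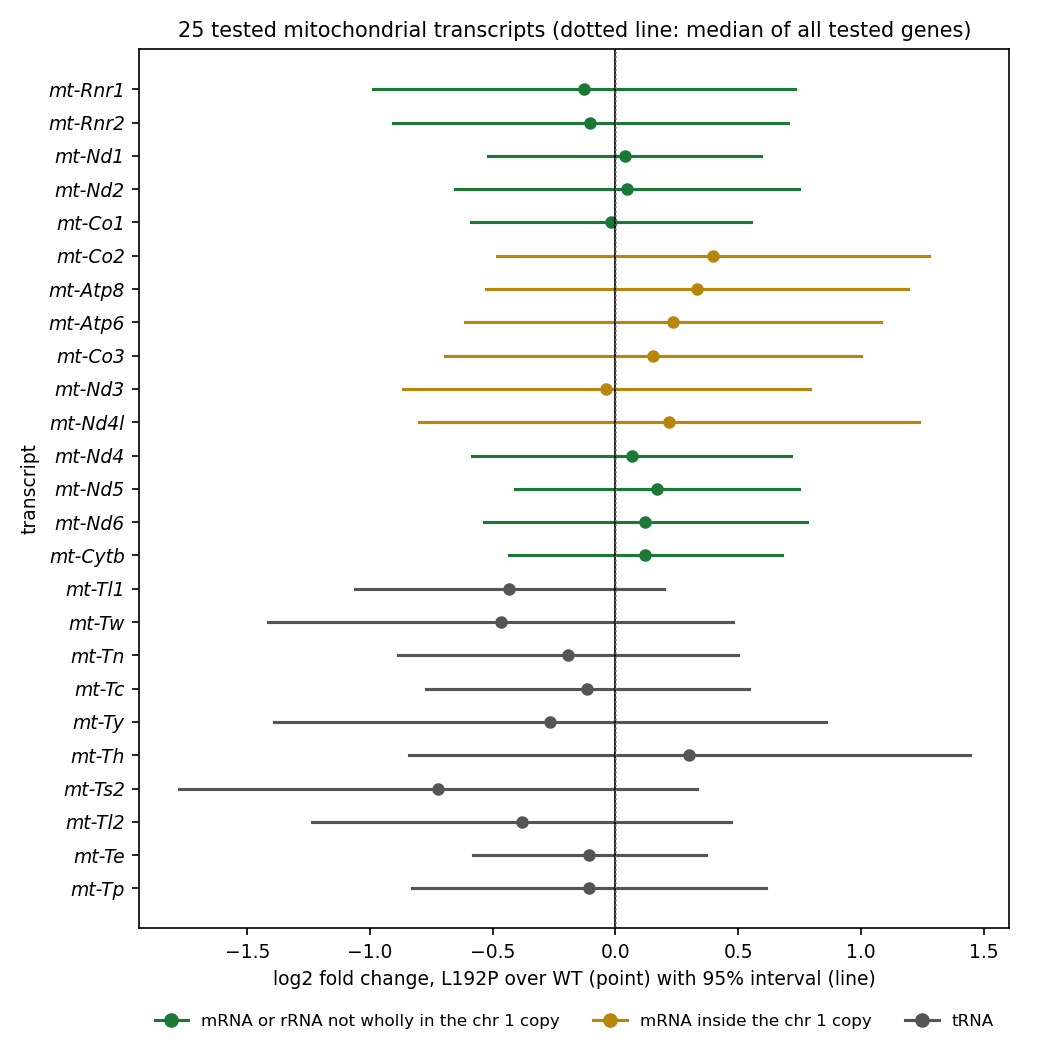
Log2 fold change of L192P over WT (x axis) for the 25 mitochondrial genes tested, in genome order with the tRNAs last; points are DESeq2 estimates and lines their 95% intervals (n = 4 each), and the dotted line is the median of all tested genes. Each of the 25 intervals includes 0, and those of the mRNAs inside the chromosome 1 copy are wider than those of the other mRNAs.

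Complex I, the NADH dehydrogenase at the entry of the respiratory chain, takes 7 of its subunits from mitochondrial DNA. mt-Nd1 (ENSMUSG00000064341, MT 2751 to 3707, plus strand) encodes a subunit near the quinone site. It had 20859.8, 44017, 55099 and 51069.6 normalized counts in L192P replicates 1 to 4 and 31287, 46917, 36659 and 51847 in WT replicates 1 to 4. For mt-Nd2 (ENSMUSG00000064345, MT 3914 to 4951, plus strand), a subunit of the membrane arm, the L192P libraries had 13136, 29830.0, 36270.1 and 34262 and the WT libraries 20219, 30495, 23765 and 35329.7 normalized counts. In both genes the replicate 1 libraries were the lowest pair and the genotypes overlapped. The log2 fold changes were 0.04 with a standard error of 0.28 and 0.05 with 0.36 (DESeq2 adjusted p = 0.994 for both). Their signs turned with the replicate block, to -0.028 and -0.022.

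mt-Nd4 (ENSMUSG00000064363, MT 10167 to 11544, plus strand) and mt-Nd5 (ENSMUSG00000064367, MT 11742 to 13565, plus strand) encode the large proton-pumping subunits of the membrane arm. Counts of mt-Nd4 were 11635, 24967, 29347 and 27433 in L192P and 16378, 24659.6, 19894 and 28262 in WT, normalized, in the order of the replicate numbers. Those of mt-Nd5 were 16171, 34299, 43441 and 39678 in L192P and 22203, 30937, 28138 and 37525 in WT. L192P replicate 3 was the highest library in both genes and L192P replicate 1 the lowest. For mt-Nd4 the log2 fold change was 0.07 (standard error 0.33, DESeq2 adjusted p = 0.991). mt-Nd5 had the largest value of the 7 mRNAs not wholly inside the copy, 0.17 with a 95% interval of -0.41 to 0.75 (DESeq2 adjusted p = 0.953). Without L192P replicate 1 it was 0.40, with an unadjusted p of 0.0478 in the DESeq2 fit of all genes and an adjusted p of 0.454. Without L192P replicate 3 it was 0.018 and without WT replicate 1 it was 0.052, with DESeq2 adjusted p-values of 0.99978 and 0.979.

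mt-Nd6 (ENSMUSG00000064368, MT 13552 to 14070, minus strand) is the only mRNA read from the opposite strand, and its gene shares 14 bases with the end of mt-Nd5. Its normalized counts were 4473, 10706, 11512 and 10456 in L192P and 6278, 10254, 7689 and 9927 in WT. L192P replicate 1 lay far below the other 3 libraries of its genotype, which were above all 4 WT libraries. The log2 fold change was 0.12 (standard error 0.34, DESeq2 adjusted p = 0.981). With both replicate 1 libraries left out it was 0.23 with a standard error of 0.087, an unadjusted p of 0.00897 and a DESeq2 adjusted p of 0.140. Relative to mt-Nd5, counts on mt-Nd6 were 26.4% to 33.1%, and lower in the L192P library in 4 of 4 replicate numbers. The means were 27.9% ± 2.27 in L192P and 28.8% ± 2.99 in WT (SD, n = 4 each). The difference of -0.868 percentage points had a standard error of 1.88 between the groups, and an SD of 0.771 over the 4 differences within a number. The libraries are strand-specific, but whether strand was used in counting is not given in the sources used here. Without strand, reads of mt-Nd6 and of the heavy-strand precursor opposite it cannot be told apart.

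mt-Nd3 (ENSMUSG00000064360, MT 9459 to 9806, plus strand) and mt-Nd4l (ENSMUSG00000065947, MT 9877 to 10173, plus strand) are small membrane subunits of complex I, and both genes lie inside the chromosome 1 copy. mt-Nd3 had 99.96, 223, 288 and 242 normalized counts in L192P and 124, 258, 176 and 317 in WT. mt-Nd4l had 42.0, 52.3, 174 and 76.7 in L192P and 49.2, 61.6, 76.0 and 110.0 in WT. The ranges overlapped, and for mt-Nd4l the single library L192P replicate 3 exceeded all others. The log2 fold changes were -0.04 with an interval of -0.87 to 0.79 and 0.22 with an interval of -0.80 to 1.24 (DESeq2 adjusted p = 0.997 and 0.974).

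Complex III takes a single subunit from mitochondrial DNA, cytochrome b, which carries electrons from ubiquinol through the membrane. Its gene mt-Cytb (ENSMUSG00000064370, MT 14145 to 15288, plus strand) shows no window of 75 bases in the nuclear genome. Normalized counts were 28773, 59106, 73671 and 68847 in L192P and 39979, 58175, 47827 and 65785 in WT. The genotypes overlapped, with a log2 fold change of 0.12 and an interval of -0.43 to 0.68 (DESeq2 adjusted p = 0.973). As a share of the mitochondrial counts, mt-Cytb was 15.2% to 15.5% in the 4 L192P libraries, and 15.7%, 14.1%, 14.7% and 13.99% in WT replicates 1 to 4. All L192P values thus lay above WT replicates 2 to 4 and below WT replicate 1.

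Complex IV, cytochrome c oxidase, is built around the proteins of mt-Co1, mt-Co2 and mt-Co3, of which the first 2 hold the metal centres. mt-Co1 (ENSMUSG00000064351, MT 5328 to 6872, plus strand) had the most counts of the mitochondrial transcripts and took 37.4% to 40.4% of the mitochondrial counts. It had 74814, 150561, 180978 and 165520.5 normalized counts in L192P and 97643, 165949, 125055 and 189870.3 in WT. The lowest library was L192P replicate 1 and the highest WT replicate 4. Its log2 fold change was -0.02 with an interval of -0.59 to 0.55 (DESeq2 adjusted p = 0.998), and its sign turned to 0.0089 with total-count size factors. mt-Co2 (ENSMUSG00000064354, MT 7013 to 7696, plus strand) had 310.2, 445, 1099 and 944 normalized counts in L192P and 432, 438, 536 and 721 in WT. mt-Co3 (ENSMUSG00000064358, MT 8607 to 9390, plus strand) had 280.3, 365, 904 and 673 in L192P and 331, 472, 503 and 691 in WT. In both, L192P held the lowest and the highest library, and the WT values lay between them. The log2 fold change of mt-Co2, 0.40, was the highest of the 25, with an interval of -0.48 to 1.27 (DESeq2 adjusted p = 0.908). It was 0.093 without L192P replicate 3 and 0.64 without L192P replicate 1. That of mt-Co3 was 0.15, with 0.43 as its standard error (DESeq2 adjusted p = 0.982).

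Complex V, the ATP synthase, takes mt-Atp6, the channel subunit through which protons pass, and mt-Atp8, a small stator subunit, from mitochondrial DNA. mt-Atp8 (ENSMUSG00000064356, MT 7766 to 7969, plus strand) had 13.1, 15.9, 57.7 and 38.3 normalized counts in L192P and 21.9, 23.7, 19.6 and 33.9 in WT. mt-Atp6 (ENSMUSG00000064357, MT 7927 to 8607, plus strand) had 189.7, 317, 662 and 557 in L192P and 306, 286, 354 and 521 in WT. L192P replicates 3 and 4 were the highest libraries for both, and replicate 1 of L192P the lowest, so the groups overlapped. The log2 fold changes were 0.33 with a standard error of 0.44 for mt-Atp8 and 0.23 with 0.43 for mt-Atp6 (DESeq2 adjusted p = 0.927 and 0.956). In the fit without the replicate block, the 95% intervals of the 5 mRNAs with no base in the copy reached from 0.636-fold to 1.72-fold. For the 6 inside it they reached from 0.548-fold to 2.42-fold. With the block, the log2 fold changes of those 5 had standard errors of 0.24 to 0.26, in place of 0.28 to 0.36.

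The rRNAs of the mitochondrial ribosome carry short tails of adenosines. mt-Rnr1 (ENSMUSG00000064337, MT 70 to 1024, plus strand), the 12S rRNA of the small subunit, had 5862, 12876, 14957 and 15832 normalized counts in L192P and 6337, 16508, 12802 and 18423 in WT. mt-Rnr2 (ENSMUSG00000064339, MT 1094 to 2675, plus strand), the 16S rRNA of the large subunit, had 10027, 20580.5, 26049 and 26815 in L192P and 11894, 26232, 21323 and 30154 in WT. Replicate 1 was the lowest library of either genotype, and WT replicate 4 the highest of all 8. The log2 fold changes were -0.13 with a standard error of 0.44 and -0.10 with 0.41 (DESeq2 adjusted p = 0.985 and 0.986). With the replicate number as a block the standard errors fell to 0.13 and 0.14, around log2 fold changes of -0.12 for both, and the DESeq2 adjusted p-values were 0.826 and 0.821.

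The share of the rRNAs within the mitochondrial RNA did not separate the genotypes. It was 8.50%, 8.60%, 8.63% and 9.63% of mitochondrial counts in L192P replicates 1 to 4, and 7.18%, 10.4%, 10.5% and 10.3% in WT replicates 1 to 4. WT replicate 1 was the lowest library and the other 3 WT libraries were above every L192P library. L192P was therefore higher in number 1 and lower in numbers 2 to 4, and the means of 8.84% ± 0.528 and 9.59% ± 1.61 (SD, n = 4 each) differed by less than 1 standard error of 0.846. The differences within a number had a mean of -0.751 percentage points and an SD of 1.48. With size factors from the mitochondrial counts and both replicate 1 libraries left out, a setting chosen after seeing the data, the log2 fold change of mt-Rnr1 was -0.24 with a standard error of 0.15 and that of mt-Rnr2 -0.20 with 0.15 (DESeq2 adjusted p = 0.996 for both).

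Very few counts fell on the tRNAs, which are adaptors of translation encoded here by genes of 59 to 75 bases and carry no long poly(A) tail. The 22 genes together had 320 to 1488 counts in a library, or 5339 of 3034548 mitochondrial counts over all 8. Counts of a tRNA gene can come from uncut precursor as well as from the mature tRNA. No count was found in any library for mt-Tf, mt-Ts1, mt-Td and mt-Tk, and 8 others had counts but a mean under 10 normalized counts. Of the 5 tRNA genes inside the chromosome 1 copy, 3 had no count and 0 reached a mean of 10, whereas 10 of the 17 outside it did. Genes outside it are not all free of nuclear copies. mt-Tw, mt-Tn, mt-Tc and mt-Ty, which reached that mean, lie wholly in other nuclear matches, as does mt-Ta, which did not. For mt-Tw, mt-Tn, mt-Ty, mt-Th and mt-Te, 100% of the windows of 50 bases occur in the nuclear genome. The part of nuclear copies in the tRNA counts was not tested.

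The proline tRNA mt-Tp (ENSMUSG00000064372, MT 15356 to 15422, minus strand) alone took 44.7% to 55.0% of the tRNA counts. It had 137, 336, 372 and 355 normalized counts in L192P and 230.4, 428, 273 and 361 in WT. The glutamate tRNA mt-Te, whose gene adjoins mt-Nd6 on the minus strand, had 52.3, 116, 119.9 and 94.6 in L192P and 82.0, 99.99, 101 and 129 in WT. Both were lowest in L192P replicate 1 and overlapped between genotypes, with a log2 fold change of -0.11 for mt-Tp and -0.11 for mt-Te (standard errors 0.37 and 0.24). Together the 8 tRNA genes of the minus strand held 73.6% to 85.5% of the tRNA counts, although 14 tRNA genes lie on the plus strand.

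Among the 10 tested tRNAs the mean was lower in L192P for 9, and DESeq2 called 0. The median log2 fold change was -0.23, and DESeq2 adjusted p-values lay between 0.778 and 0.985. The serine tRNA mt-Ts2 had the lowest value, -0.72 with an interval of -1.78 to 0.33, from 5.61, 20.5, 20.8 and 7.19 normalized counts in L192P and 6.37, 27.1, 27.2 and 28.1 in WT. Values for the tryptophan tRNA mt-Tw (-0.47), the leucine tRNAs mt-Tl1 (-0.43) and mt-Tl2 (-0.38) and the tyrosine tRNA mt-Ty (-0.27) were also log2 fold changes under -0.2. The asparagine tRNA mt-Tn had -0.19 and the cysteine tRNA mt-Tc -0.11. The histidine tRNA mt-Th was the exception at 0.30. As a share of mitochondrial counts, tRNAs were 0.160% ± 0.0168 in L192P and 0.185% ± 0.0151 in WT (SD, n = 4 each), with overlapping groups. The share was lower in the L192P library in 4 of 4 replicate numbers, with a mean difference of -0.0242 percentage points and an SD of 0.00723 over the 4 differences. With 320 to 1488 tRNA counts per library, counting noise enters each difference. An SD from 4 values is imprecise, and the share was not tested.

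Divided by gene length, the mRNAs and rRNAs fell into a high and a low set, and the low set was the 6 mRNAs inside the chromosome 1 copy. Levels per length are given as length-normalized counts, the counts per kilobase of gene for every 1000000 counts of the library, averaged over 8 libraries. The order was mt-Co1 at 3805, mt-Cytb at 1976, mt-Nd1 at 1804 and mt-Nd2 at 1100 length-normalized counts, and these 4 led in this order in 8 of 8 libraries. The next 5, mt-Nd5 (708), mt-Nd6 (702), mt-Nd4 (677), mt-Rnr2 (559) and mt-Rnr1 (554), lay close together. For mt-Nd4 61.5% and for mt-Co1 39.8% of the windows of 75 bases also occur in the nuclear genome, yet the full gene length was used. As the treatment of such reads is not known, the level of mt-Nd4 and the size of the lead of mt-Co1 are uncertain. mt-Nd6 was 0.926 to 1.16 times mt-Nd5 per length and mt-Rnr2 0.959 to 1.13 times mt-Rnr1, so both pairs of neighbours changed places between libraries.

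The 6 mRNAs inside the copy stood far lower. They ran from 5.62 length-normalized counts for mt-Atp8 and 11.1 for mt-Nd4l to 27.5 for mt-Co3 and 36.8 for mt-Co2. The lowest of the other 9 mRNAs and rRNAs was 9.75 to 22.4 times the highest of the 6 inside, depending on the library. mt-Co1 and mt-Co2, which lie close to each other on the same precursor and encode partners in 1 enzyme, differed 72.9-fold to 168-fold per length. Among the tRNAs, mt-Tp (190.01) and mt-Te (58.9) lay between both sets. Others with no base in the copy were as low as its mRNAs, such as mt-Tl1 at 20.7 and mt-Ts2 at 12.3 length-normalized counts. Both of these genes also lie outside the other nuclear matches found. The tRNA genes are short and their RNAs carry no long poly(A) tail, so their levels are no like measure for the mRNAs. The 6 mRNAs together made up 0.365% to 0.670% of mitochondrial counts. Since at least 98.9% of the windows of 75 bases in these genes also occur in the nuclear genome, and the treatment of such reads is not known, the counts cannot be read as the levels of these mRNAs. The part of the copy in their low counts was not tested.

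**Figure D4:**
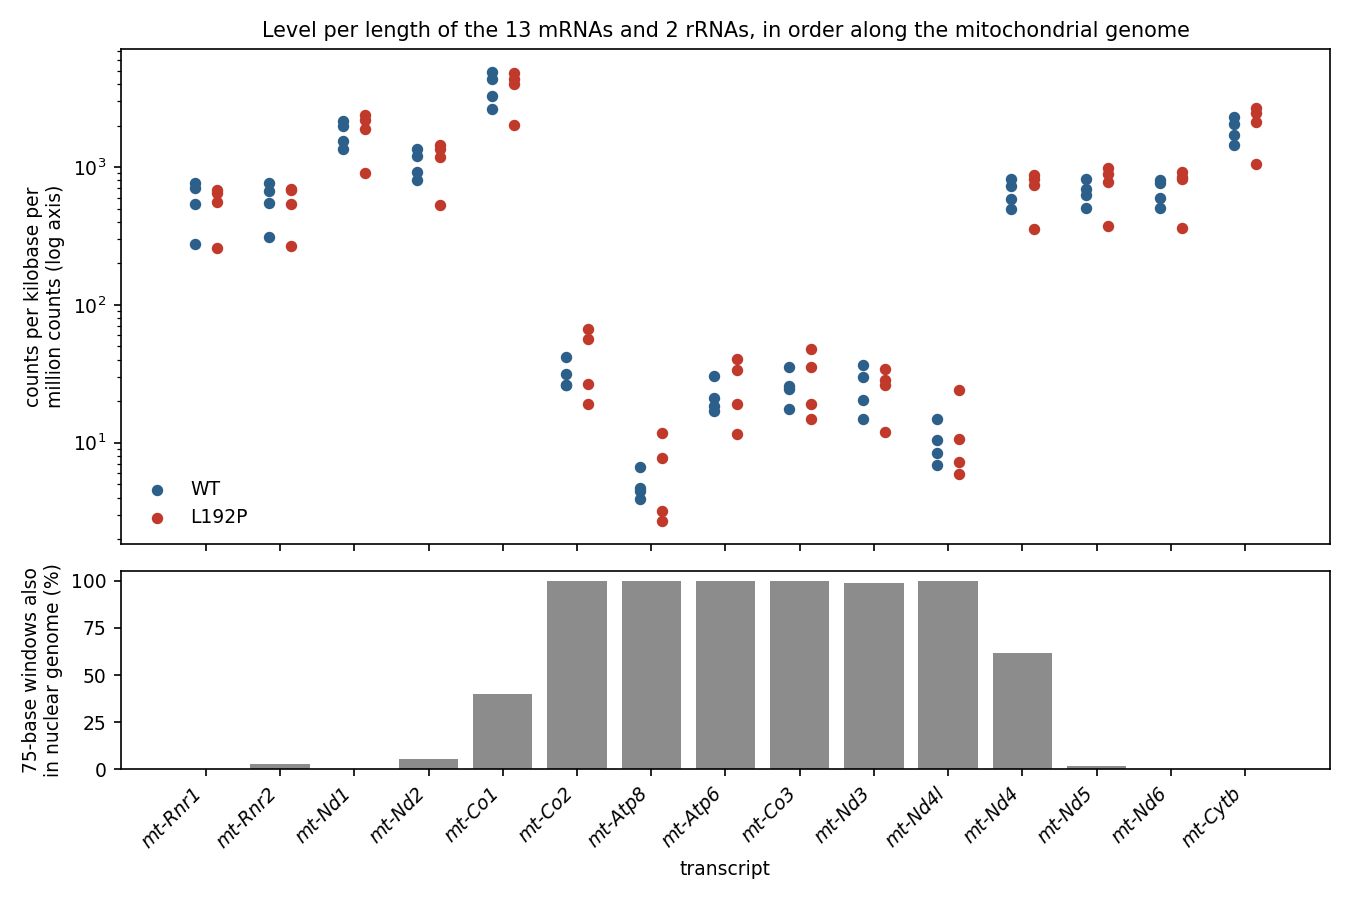
Upper panel, level per length of the 13 mRNAs and 2 rRNAs in genome order, in length-normalized counts (per kilobase and 1000000 counts of the library, log axis), with 1 point per library (4 WT, 4 L192P). Lower panel, percent of all windows of 75 bases in the gene that also occur in the nuclear genome; the 6 genes at 98.9% or 100% have means of 5.62 to 36.8, and the other 9 have means of 554 to 3805.

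Rows for the copy itself also received counts. Gm28661, the chromosome 1 copy of mt-Co2 (24653966 to 24654646, minus strand), had 308, 321, 830 and 678 counts in L192P replicates 1 to 4 and 483, 694, 461 and 531 in WT replicates 1 to 4. The ratio of mt-Co2 to Gm28661 was 0.981 to 1.22 in the 8 libraries. For mt-Co3 and Gm28437 the ratio was 1.13 to 1.41, and for mt-Atp6 and Gm10925 0.540 to 0.707. All 7 rows of the chromosome 1 copy together held 1386 to 3467 counts per library, and 0 of them were called by DESeq2. Beyond these rows, Gm13340, the chromosome 2 copy of mt-Co1, had 480 to 1678 counts per library (DESeq2 adjusted p = 0.959). mt-Co2 as a percentage of mt-Co1 was 0.415, 0.296, 0.607 and 0.570 in L192P and 0.442, 0.264, 0.428 and 0.380 in WT, so that L192P replicates 3 and 4 stood above the other 6 libraries.

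**Figure D5:**
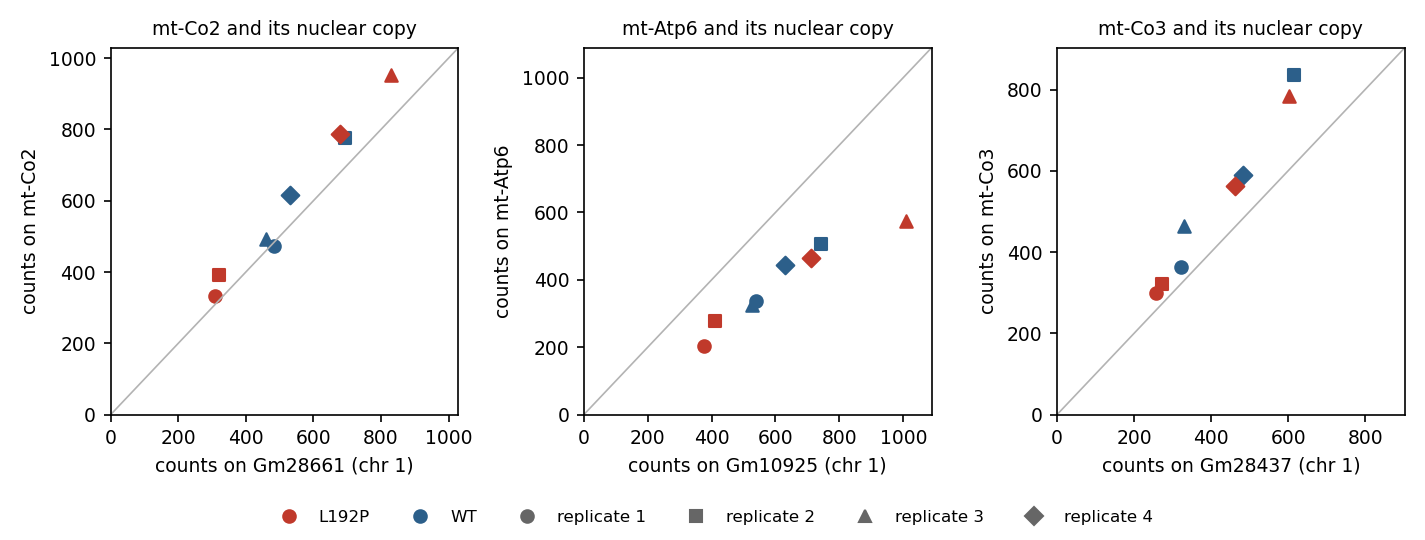
Counts on 3 mitochondrial genes (y axis) against counts on their chromosome 1 copies (x axis) in the 8 libraries, with colour for genotype, shape for replicate number and a grey line where both are equal. mt-Co2 stays close to the line, with a ratio of 0.981 to 1.22, mt-Co3 lies above it and mt-Atp6 below it.

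The nuclear genes that serve mitochondrial DNA were compared in the same fit. A list of 63 genes covered transcription (the polymerase Polrmt and its factors Tfam and Tfb2m), processing, stability and polyadenylation, rRNA and tRNA modification, upkeep of the DNA and regulators of biogenesis. All 63 were tested, 0 were called by DESeq2, edgeR or limma-voom, and 2 had an unadjusted p under 0.05. Of all genes tested, DESeq2 called 1.36%, and edgeR and limma-voom called 53 and 45 genes. The median log2 fold change was -0.017, beside 0.0019 for all tested genes. Pde12, a nuclease that removes adenosines from mitochondrial RNA tails, had the highest value at 0.25 with a standard error of 0.088 (DESeq2 adjusted p = 0.178). Fastkd3, a mitochondrial RNA-binding protein, had the lowest at -0.29 with 0.12 (DESeq2 adjusted p = 0.335).

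The nuclear partners of the mitochondrial subunits were likewise below the threshold. Of 78 listed subunits of complexes I to V, 74 were matched in the table and tested. DESeq2, edgeR and limma-voom called 0 of them, with 1 at an unadjusted p under 0.05, and 13 of the 74 log2 fold changes were above 0. Among all 18627 genes tested, DESeq2 called 1.36%, and 9418 log2 fold changes were above 0. The median of the 74 nuclear subunits was -0.038, beside 0.0019 for all tested genes. For complex I the median was 0.066 over the 7 mitochondrial subunits and -0.038 over 36 nuclear ones. For complex IV it was 0.15 over 3 mitochondrial subunits and -0.064 over 11 nuclear ones, of which 0 were above 0. For complex V it was 0.28 over 2 and -0.022 over 14. Both complex V mRNAs, mt-Co2 and mt-Co3 of complex IV, and mt-Nd3 and mt-Nd4l of complex I lie inside the chromosome 1 copy. Their counts cannot be read as levels, so neither can these mitochondrial medians for complexes IV and V. mt-Co1, not wholly inside the copy, had a log2 fold change of -0.02. The nuclear subunits were measured more tightly, with a median standard error of 0.071. Of the proteins of the mitochondrial ribosome, 77 of 78 were tested, 0 were called by any of the 3 tools, 2 had an unadjusted p under 0.05, and the median log2 fold change was -0.022.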

How the data were processed

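Poly(A)-selected cortical RNA in 8 libraries, 4 L192P and 4 WT, was sequenced by the authors at 1 of 2 sites, and which library was run where is not stated. Per the labels, the authors aligned the reads with STAR 2.7.9a and tallied them per gene with featureCounts 1.5.1; the methods name GRCm39. The deposited counts are whole reads per gene, without pooling. Strand, multiple-mapping and annotation release are not given in the sources used here. The authors also deposited a normalized signal, the count divided by a DESeq2 size factor, which equalled the values computed here (largest difference 3.49e-10).

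DESeq2 1.42.0 in R 4.3.3 was fitted to all 55416 rows with genotype as the only term, Cook's filter at its default and independent filtering at 0.05. Calls were made where the Benjamini-Hochberg adjusted p, over 18627 genes tested, was under 0.05. Fold changes are unshrunken, and 95% intervals are the estimate and its normal error. The total of 20396357 to 43575900 counts per library sets the counting precision. Genes with a low mean were not tested.

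Alternatives were edgeR 4.0.16, limma 3.58.1 (voom), other size factors, filters, the replicate block, sva 3.50.0 with 1 surrogate variable, and fits with libraries left out. DESeq2, edgeR and limma-voom were run on simulated counts with known changes, and sva was not. Libraries of a genotype differed beyond sampling noise (chi-square per degree of freedom 5.98 to 25.0). Deviations from the group mean over 13422 genes correlated between same-numbered libraries at 0.63, 0.38, 0.23 and 0.33, and between others at -0.38 to 0.14, so the label numbers were taken to pair the libraries. The labels and methods do not say whether libraries come from separate animals, and p-values then measure the spread between these libraries.

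Gene positions are from GENCODE release M39. Nuclear matches of at least 200 bases and 95% identity were found with blastn 2.17.0. The transcripts and gene lists were chosen with earlier results of these data known. A further marker list is not reported here. All mRNAs and rRNAs are named, tRNAs with a mean of at least 10 normalized counts, and of a nuclear group the genes with the highest and lowest fold change at a mean of at least 50.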

Additional observations from a re-analysis of the deposited data

Results flagged for a closer look

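Of 88 sets of 4 libraries screened, 9 had 1 library whose distance to its nearest neighbour was an unusually large part of the whole range, where chance gives about 1 in 20, or 4.4. In L192P, replicate 1 was far below the rest for mt-Nd6 (4473 normalized counts, next 10456) and mt-Tp (137, next 336). L192P replicate 4 stood apart in the make-up of its mitochondrial RNA, with 90.2% mRNA against 91.2% or more, and 9.63% rRNA against 8.63% or less. L192P replicate 2 had 2.90% of its mitochondrial counts on minus-strand genes, and the next L192P library 2.55%, while WT replicate 2 had 2.64%. In WT, replicate 1 had 92.6% mRNA against 89.5% or less, 7.18% rRNA against 10.3% or more, and 6.37 normalized counts of mt-Ts2 against 27.1 or more. WT replicate 2 had 0.373% of its mitochondrial counts on the 6 mRNAs inside the chromosome 1 copy, and the next WT library 0.498%. L192P replicate 2 was lower still, at 0.365%. The mRNA and rRNA shares are nearly mirror images, so each of those libraries was counted for both.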

How the results depend on the processing

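In 23 alternative fits 0 mitochondrial transcripts were called. All 25 had an adjusted p in 13 fits, 24 with edgeR and limma-voom, 16 with the replicate block and 21 to 24 in the other 7, and those without one could not be called. With the replicate number as a block, which pairs the libraries, the median log2 fold change of the 13 mRNAs and 2 rRNAs was 0.047 in place of 0.12. Both medians include the 6 mRNAs inside the chromosome 1 copy. The difference in mitochondrial share stays at 0.0592 percentage points by construction, since each number holds a single library of either genotype. With the block, 0 of the 16 transcripts with an adjusted p were called. Leaving out 1 library moved the median between -0.11 and 0.34 and the share difference between -0.0841 and 0.312 percentage points, the low end of the share without WT replicate 1 and both high ends without L192P replicate 1. The sign of small log2 fold changes was not stable, and the cause was not tested. mt-Nd1 was -0.036 with limma-voom, -0.012 with size factors from mitochondrial counts, -0.028 with the replicate block, -0.045 with 1 surrogate variable and -0.011 with size factors from mitochondrial counts plus the block. In the same order mt-Nd2 was -0.031, -0.0054, -0.022, -0.044 and -0.0056. mt-Nd4 was -0.0090 with 1 surrogate variable. mt-Co1 was 0.0089 with total-count size factors and 0.011 with size factors from counts off the mitochondrial chromosome. With both replicate 1 libraries left out, mt-Co1 was 0.046, mt-Nd3 0.0021, mt-Tc 0.048 and mt-Te 0.011. With that and size factors from mitochondrial counts, Ago2 was -0.099, in a setting that moved the median of all genes by -0.14. This setting and the one that joins mitochondrial size factors with the block were chosen after seeing the data.

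Ranges that crossed 0 when libraries were left out one at a time were -0.11 to 0.26 for mt-Nd1, -0.091 to 0.28 for mt-Nd2, -0.23 to 0.20 for mt-Nd3, -0.061 to 0.29 for mt-Nd4, -0.37 to 0.47 for mt-Nd4l, -0.0010 to 0.35 for mt-Nd6, -0.018 to 0.34 for mt-Cytb, -0.17 to 0.19 for mt-Co1, -0.18 to 0.37 for mt-Co3, -0.047 to 0.48 for mt-Atp6 and -0.15 to 0.60 for mt-Atp8. For the rRNAs they were -0.36 to 0.11 (mt-Rnr1) and -0.31 to 0.13 (mt-Rnr2). For tRNAs they were -0.47 to 0.11 (mt-Tc), -0.58 to 0.12 (mt-Ty), -0.0023 to 0.88 (mt-Th), -0.23 to 0.10 (mt-Te) and -0.24 to 0.13 (mt-Tp), and for Ago2 -0.0075 to 0.059. mt-Nd5 and mt-Co2 were above 0 in all 23 alternatives, at 0.018 to 0.40 and 0.093 to 0.64, the low ends without L192P replicate 3 and the high ends without L192P replicate 1. Counts of all genes called by other tools were 53 with edgeR and 45 with limma-voom, in place of 253, and 112 to 496 with 1 library left out. The tRNAs rest on 320 to 1488 counts per library, and how reads shared with chromosome 1 were counted is not known.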

Other observations

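A comparison chosen after the values were seen concerns the order of the genes on the heavy-strand precursor. The rRNAs stand near its start, and mt-Nd5 and mt-Cytb near its end. The ratio of counts on mt-Nd5 plus mt-Cytb to counts on both rRNAs was 2.83, 2.79, 2.86 and 2.54 in L192P replicates 1 to 4, and 3.41, 2.08, 2.23 and 2.13 in WT replicates 1 to 4. All L192P values were above WT replicates 2 to 4 and below WT replicate 1, so the groups overlapped, and the means were 2.76 ± 0.143 and 2.46 ± 0.635 (SD, n = 4 each). Across the 8 plus-strand mRNAs and rRNAs not wholly inside the chromosome 1 copy, the log2 fold change rose with the place of the gene, from -0.13 for mt-Rnr1 to 0.17 for mt-Nd5 and 0.12 for mt-Cytb, with a Spearman rho of 0.905. The genes share libraries and a precursor, so this is a description across genes, and each of these fold changes missed the threshold.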
